A study of Mus musculus with 8 samples.

Results

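Transcripts of 10 genes that direct or accompany red blood cell formation were examined in newborn livers that lack Mfp2, the multifunctional protein 2 of peroxisomal fatty acid chain-shortening, and in wild type livers. Every probe set (a group of probes on an Affymetrix array that reads 1 transcript) that the array annotation pairs with exactly 1 of the 10 symbols was taken, which gave 18 of the 45037 probe sets tested. The late maturation genes Trim10, Plek2, Tmcc2 and Xpo7 hold 12 of these probe sets, and the early factors Gata1, Tal1, Nfe2, Gfi1b, Epor and Hemgn hold 6, 1 each. The genes were drawn up with earlier results of the same comparison known, and Trim10, Plek2 and Tmcc2 had already been named among its large falls. Their differences between the genotypes are therefore given as a description, with no test.

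The livers came from 4 mice with the genotype Mfp2 -/- (KO) and 4 mice labelled WT, all 2 days old, with 1 array of total liver RNA per mouse. The design text counts 4 animals per genotype, and each array was read as its own mouse; strain, litter and sex are not given in the labels used here. Transcripts of all cells of the liver were measured together, so fewer cells of a type and less RNA per cell cannot be told apart. The level of each probe set is on the log2 scale after RMA, the authors' normalization, so a difference of 1 is a doubling, and levels of different probe sets were not set against each other.

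The newborn mouse liver still makes red blood cells. In red cell precursors Gata1, a zinc finger protein, and Tal1, a basic helix-loop-helix protein, bind DNA together in a complex with Lmo2 and Ldb1 and switch on genes of haem synthesis, globins and the red cell membrane, while signals of erythropoietin through its receptor Epor keep the precursors alive. As the precursors mature they fill with haemoglobin, condense the nucleus, expel it and clear their organelles, and a second set of genes is then at its highest.

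Labels and cell content were checked first. Mfp2 is encoded by Hsd17b4, whose level was 3.84 ± 0.45 (SD, n = 4) in KO livers and 8.50 ± 0.40 in WT livers, so each array matched its genotype. Hepatocyte markers were high in all 8 livers, with a mean over 6 markers of 12.5 to 12.7 in KO livers and 12.5 to 12.6 in WT livers. The red cell genes Slc4a1 (the anion exchanger of the red cell membrane) and Alas2 (the first enzyme of erythroid haem synthesis) averaged 10.3 and 9.42 in KO livers and 11.3 and 10.1 in WT livers, all above the array medians of 3.68 to 3.73. These 2 genes, and Pf4 further on, were picked after their values were seen. KO 1, KO 2 and WT 3 had high levels of Xist, which coats the silenced X chromosome, and low levels of Y-linked transcripts.

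Because the 10 genes share a place in one programme, the 250 bases before the start of a few of them are shown, as RefSeq gives them for GRCm38.p6, 5′ to 3′ on the gene's own strand. Hemgn and Epor stand for the early factors, and Trim10 and Plek2 for the late genes, with Plek2 as the one of the 4 without a GATAA. Capitals mark GATAA on either strand (written TTATC on the other), the core that Gata1 binds, and TGAGTCA on either strand, the core of sites of NF-E2, the complex of which Nfe2 is a subunit.
Trim10, chr17:36869324-36869573, plus strand: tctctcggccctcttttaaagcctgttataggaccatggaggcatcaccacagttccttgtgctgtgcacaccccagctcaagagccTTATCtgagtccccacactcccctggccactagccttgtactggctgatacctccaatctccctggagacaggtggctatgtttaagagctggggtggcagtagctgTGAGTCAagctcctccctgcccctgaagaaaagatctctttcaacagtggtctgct
Plek2, chr12:78906939-78907188, minus strand: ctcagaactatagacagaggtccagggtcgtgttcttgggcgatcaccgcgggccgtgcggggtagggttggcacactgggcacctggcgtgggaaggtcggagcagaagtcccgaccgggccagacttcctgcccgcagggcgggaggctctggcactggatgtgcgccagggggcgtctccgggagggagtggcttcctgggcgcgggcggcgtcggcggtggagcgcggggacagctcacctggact
Epor, chr9:21963577-21963826, minus strand: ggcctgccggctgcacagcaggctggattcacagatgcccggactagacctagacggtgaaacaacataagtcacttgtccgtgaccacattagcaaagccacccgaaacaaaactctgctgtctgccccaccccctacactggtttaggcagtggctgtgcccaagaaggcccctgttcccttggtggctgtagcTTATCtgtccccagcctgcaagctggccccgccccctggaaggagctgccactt
Hemgn, chr4:46404184-46404433, minus strand: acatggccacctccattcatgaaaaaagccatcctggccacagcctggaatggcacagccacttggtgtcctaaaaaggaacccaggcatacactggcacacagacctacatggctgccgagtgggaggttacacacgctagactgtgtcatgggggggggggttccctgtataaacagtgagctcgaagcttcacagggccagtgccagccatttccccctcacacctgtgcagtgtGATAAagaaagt
Of the 10 genes 8 had an entry, with 11 windows in all, since Tal1 has 2 starts and Tmcc2 has 3. GATAA was found in 6 of the 11 windows, 1 each of Tal1, Gfi1b, Epor, Hemgn, Trim10 and Tmcc2, while 22.6% of all 32851 windows of this length hold it. TGAGTCA was found in 1 of the 11, that of Trim10, against 4.46% of all windows. CACCC, the core bound by Klf1-type factors, was in 8 of the 11, against 52.0% of all windows, and CANNTG, the E-box that Tal1 and its partners bind, was in 8 of the 11, against 66.2%. CANNTG and CACCC did not enter the capitals. A match describes the letters in the window and shows no binding.

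All 10 genes had a lower mean in KO livers, and the late maturation genes lay further below WT than the early factors did. With the brightest probe set standing for each gene, the median difference (KO minus WT) was -1.30 for the 4 late genes, with a range of -1.78 to -1.09, and -0.84 for the 6 early factors, with a range of -0.98 to -0.42. The ranges did not overlap: Xpo7, the late gene closest to 0, at -1.09 ± 0.22 (SE), lay below Nfe2, the early factor farthest from it, at -0.98 ± 0.12, by less than either error. Over all 18193 genes the median difference was 0.01, with quartiles of -0.11 and 0.13. In the limma fit across all probe sets 7 of the 18 probe sets, and 5 of the 10 genes by their brightest probe set, were lower past an adjusted p of 0.05, where 0.564% of all probe sets and 0.841% of all genes were. The 4 KO values lay wholly below the 4 WT values in 9 of the 10 genes, against 5.02% of all genes, and in 12 of the 18 probe sets, against 3.81% of all probe sets. The genes were chosen on this comparison, so nothing is read from these counts. Trim10, Plek2 and Tmcc2 were listed for known large falls, so that the late genes lie below the early factors is part of the choice and no finding.

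**Figure D1:**
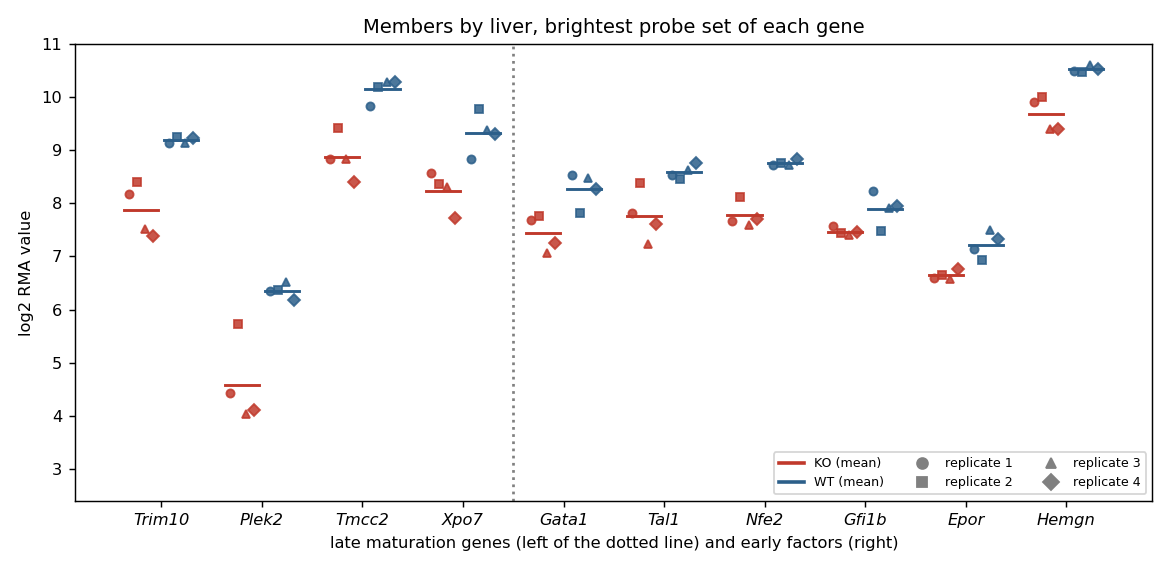
Log2 RMA value of the brightest probe set of each of the 10 genes in each liver, with late maturation genes to the left of the dotted line and early factors to the right. KO livers are red and WT livers blue, marker shapes give the replicate number and bars the mean of 4 livers. KO values lie below all WT values in each gene but Gfi1b, and the KO values of Plek2 run from 4.03 to 5.73. Heights of different genes are not comparable.

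Among the late genes, Trim10 encodes a RING finger protein needed for the last steps of red cell differentiation in mouse cells. It had 8.17, 8.40, 7.51 and 7.38 in KO 1 to 4, against 9.13, 9.26, 9.14 and 9.23 in WT 1 to 4. The WT livers were nearly even, with an SD of 0.06, while the KO livers had an SD of 0.50, and the groups were 0.73 apart at their nearest. KO livers thus differed from WT livers by -1.32 ± 0.21 (SE), which is 2.50-fold lower.

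Plek2, pleckstrin-2, is a membrane-associated protein that helps erythroblasts organise their actin and expel the nucleus. It had 4.43, 5.73, 4.03 and 4.10 in KO 1 to 4, against 6.36, 6.37, 6.51 and 6.17 in WT 1 to 4. KO 2 lay closer to the WT livers than to the other 3 KO livers, yet below all WT values by 0.44. Its difference, -1.78 ± 0.32 (SE) or 3.44-fold lower, was the largest of the 10 genes and also had the largest error. KO 1, KO 3 and KO 4 lay near the array medians of 3.68 to 3.73. Without KO 2 the difference was -2.17.

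Tmcc2 encodes a membrane protein with coiled coils. Its brighter probe set had 8.83, 9.42, 8.84 and 8.39 in KO 1 to 4, against 9.84, 10.20, 10.27 and 10.29 in WT 1 to 4. Again KO 2 was the highest KO liver, and WT 1 was the lowest WT liver. The difference was -1.28 ± 0.20 (SE) or 2.43-fold lower and -1.17 ± 0.19 by the second probe set.

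Xpo7 encodes a nuclear export receptor that takes part in the condensation of the nucleus in maturing mouse erythroblasts. It was the one gene of the list with many probe sets, 8, of which 2 were bright. The brightest had 8.56, 8.36, 8.30 and 7.73 in KO 1 to 4, against 8.83, 9.78, 9.37 and 9.31 in WT 1 to 4, a difference of -1.09 ± 0.22 (SE), or 2.12-fold lower. WT 1 lay low among the WT livers and 0.27 above the highest KO liver. The other bright probe set gave -1.23 ± 0.17, and its groups were 0.60 apart; it passed the threshold of the fit and the brightest did not. The remaining 6 probe sets averaged 1.66 to 3.25 over the 8 arrays, under the median of all probe set means of 3.7, and their differences ran from -0.81 to 0.17, with 0 past the threshold. Without detection calls such levels are not shown to be above background. The values per gene use the brightest probe set alone, so these 6 and the other bright probe set did not enter them.

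**Figure D2:**
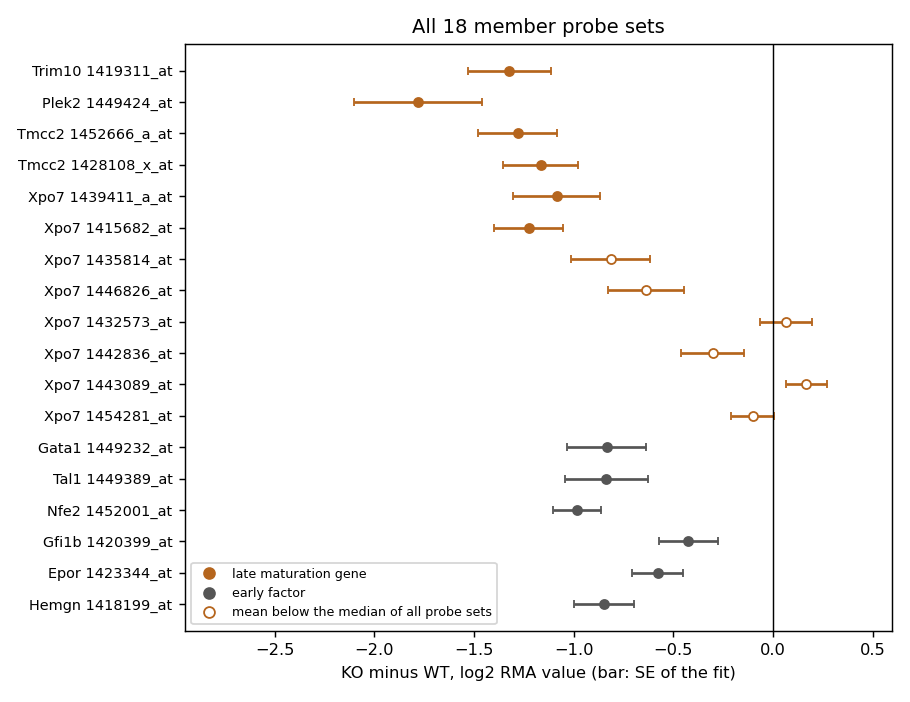
Difference of the means, KO minus WT, in log2 RMA value for each of the 18 probe sets, with the SE of the limma fit as a bar. Late maturation genes are brown, early factors grey, and open points are the 6 Xpo7 probe sets whose mean lies below the median of all probe sets. The 12 bright probe sets lie between -1.78 and -0.42, and the 6 dim ones reach up to 0.17.

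Among the early factors, Nfe2 encodes the blood-cell subunit of NF-E2, which pairs with small Maf proteins on globin and platelet genes. It had 7.67, 8.12, 7.60 and 7.71 in KO 1 to 4, against 8.73, 8.76, 8.71 and 8.83 in WT 1 to 4. The WT livers had an SD of 0.05, the smallest of the 10 genes, and the KO livers lay at least 0.60 below them. The difference was -0.98 ± 0.12 (SE), or 1.98-fold lower.

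Hemgn, hemogen, is a nuclear protein of blood-forming cells that works with Gata1. It had 9.92, 9.998, 9.40 and 9.40 in KO 1 to 4, against 10.49, 10.47, 10.61 and 10.53 in WT 1 to 4. KO 3 and KO 4 lay well under KO 1 and KO 2, and all 4 lay under the WT livers by at least 0.47. The difference was -0.85 ± 0.15 (SE), or 1.80-fold lower.

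Gata1 had 7.68, 7.76, 7.06 and 7.26 in KO 1 to 4, against 8.54, 7.81, 8.47 and 8.27 in WT 1 to 4. WT 2 was only 0.06 above KO 2, so the groups barely parted. Tal1 had 7.81, 8.38, 7.23 and 7.61 in KO 1 to 4, against 8.53, 8.46, 8.63 and 8.77 in WT 1 to 4, and here the KO liver nearest to WT, KO 2, was 0.08 below. The differences of the 2 factors were alike, -0.83 ± 0.20 (SE) for Gata1 and -0.84 ± 0.21 for Tal1, and neither passed the threshold of the fit.

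Epor, the receptor of erythropoietin, had 6.59, 6.64, 6.57 and 6.77 in KO 1 to 4, against 7.13, 6.93, 7.49 and 7.33 in WT 1 to 4. Gfi1b, a zinc finger repressor of the red cell and platelet lineages, had 7.57, 7.44, 7.40 and 7.46 in KO 1 to 4, against 8.23, 7.47, 7.90 and 7.95 in WT 1 to 4. In both genes the KO livers were the more even group, unlike in the other early factors. Epor differed by -0.58 ± 0.13 (SE) with groups 0.16 apart, and Gfi1b by -0.42 ± 0.15 with overlapping groups, since WT 2 lay below KO 1. These were the smallest differences of the 10 genes, and neither passed.

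Early and late genes were contrasted per liver by the mean of each set. The mean of the 4 late genes was 7.50, 7.98, 7.17 and 6.90 in KO 1 to 4, against 8.54, 8.90, 8.82 and 8.75 in WT 1 to 4. The mean of the 6 early factors was 7.87, 8.06, 7.54 and 7.70 in KO 1 to 4, against 8.61, 8.32, 8.64 and 8.61 in WT 1 to 4. Both means parted the groups, by a difference of -1.37 for the late genes and -0.75 for the early factors. The late mean minus the early mean, which has a meaning only between livers, was -0.38, -0.08, -0.37 and -0.80 in KO 1 to 4, against -0.07, 0.58, 0.19 and 0.14 in WT 1 to 4. Its group difference was -0.62, with SDs of 0.30 in KO livers and 0.27 in WT livers, and KO 2 and WT 1 nearly touched. With Hemgn counted among the late genes it was -0.53, and with the mean of all probe sets of a gene in place of the brightest, which brings in the dim Xpo7 probe sets, it was -0.45. No p is given, since the genes were chosen with these values known, and the lower late mean is part of that choice. The mean of 21 late maturation genes outside the list differed by -0.52, less than the -0.75 of the early factors. That mean includes Rac1, at -0.07, and the dim Alox15, at 0.08. How much of each mean came from liver cells other than red cell precursors was not measured, so the sets are not ranked by it.

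The KO livers kept a similar order across the genes. KO 2 was the highest KO liver in each gene but Gfi1b, Epor and Xpo7, and KO 3 or KO 4 was the lowest in all 10. The mean over the 10 genes was 7.72, 8.03, 7.39 and 7.38 in KO 1 to 4, with an SD of 0.31, against 8.58, 8.55, 8.71 and 8.67 in WT 1 to 4, with an SD of 0.07. The SD was larger in KO than in WT livers in 7 of the 10 genes, as it was in 51.8% of all genes. The 10-gene mean differed by -0.69 within replicates 1 and 2 and by -1.30 within replicates 3 and 4, and the difference was larger in replicates 3 and 4 for each of the 10 genes. KO 1 and KO 2 are the 2 KO livers high in Xist, and 0 of the WT livers of replicates 1 and 2 were, so sex, replicate set and genotype cannot be told apart there. When the fit carried the Y-linked mean as a further term, the median difference was -1.36 for the late genes and -0.91 for the early factors.

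Deviations from the genotype mean do not use the difference between genotypes, and over the 8 livers they described which genes moved together. Each gene was set against the mean of the other 9. Pearson's r was 0.94 for Hemgn, 0.90 for Trim10, 0.89 for Tal1, 0.85 for Plek2, 0.78 for Nfe2, 0.76 for Tmcc2 and 0.64 for Gata1, but 0.21 for Xpo7, 0.06 for Epor and 0.02 for Gfi1b. Over the 45 pairs the median r was 0.46, with the highest for Hemgn with Trim10, at 0.95, and the lowest for Gfi1b with Xpo7, at -0.64. Pairs of late genes had a median r of 0.70, pairs of a late gene with an early factor 0.37 and pairs of early factors 0.43. Hemgn, Tal1 and Nfe2 therefore ran with Trim10 and Plek2 from liver to liver, while Epor and Gfi1b, the 2 genes with the smallest differences, did not. Xpo7 had a low r with the other 9 too, at a difference of -1.09, and Gfi1b ran with Gata1, at r of 0.72. The 10-gene mean itself had r of 0.71 with the mean of the endothelial markers, 0.64 with the Kupffer cell markers, 0.56 with the cell cycle genes, 0.01 with the B cell precursor markers, -0.31 with the megakaryocyte markers, -0.60 with the neutrophil markers, -0.68 with the progenitor markers, -0.70 with the hepatocyte markers and -0.73 with the Y-linked genes, whose part in the spread was not tested. The 8 points share their arrays and RMA, and the values are descriptions with no test. Most of the spread of the 10-gene mean is that among the 4 KO livers, while in Gfi1b, Epor and Xpo7 the SD was larger in WT livers.

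The 8 named genes outside the list whose deviations were most like the 10-gene mean had r of 0.97 to 0.99 over the same 8 livers. They were Ptp4a3 (a phosphatase), Plekha7 (a junction protein), Ugt3a2 (a glycosyltransferase), Wdr90, Mis12 (a kinetochore protein), Ttc34, Smox (spermine oxidase) and Galnt1 (a starter enzyme of O-glycans). Likeness within genotypes did not go with a difference between them in every case. Smox fell by 0.84 ± 0.15 (SE), with a limma adjusted p of 0.0454, and Ptp4a3 differed by -1.09 ± 0.21, with an adjusted p of 0.0517, while Plekha7 differed by 0.04 ± 0.10 and Ttc34 by 0.22 ± 0.13, with adjusted p of 0.932 and 0.594.

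Most of the listed red cell and haem genes were lower together with the 10 genes. In the list of red cell and haem genes, 7 of 24 found by symbol were lower past the threshold and 0 higher, where 0.841% of all genes were lower. The mean was lower in 22, the groups parted downward in 18, where they did in 5.02% of all genes, and the median difference was -0.69. Car1 and Hba-a1 went the other way, at 0.99 ± 0.45 (SE) and 0.25 ± 0.13, with overlapping groups. Car1 averaged 8.63 in KO livers and 7.64 in WT livers, while Hba-a1 was dim, at 2.14 and 1.90. Both were picked after their values were seen. The list itself was drawn up with earlier results of these data known, so nothing is read from its counts. Hbb-bh1, an embryonic globin, fell by 1.32 ± 0.19 (SE), and Icam4, an adhesion protein of erythroblasts, fell by 1.24 ± 0.19. Ank1, the ankyrin of the membrane skeleton, fell by 0.92 ± 0.15 and Ermap, a red cell membrane protein, by 0.76 ± 0.12, with limma adjusted p of 0.0278 to 0.0391 for these 4. The mean of the list was 7.92, 8.19, 7.61 and 7.58 in KO 1 to 4, against 8.42, 8.49, 8.51 and 8.48 in WT 1 to 4, and within genotypes it followed the 10-gene mean with r of 0.98 over the 8 livers, a description. Of the late genes Trim10, Plek2 and Tmcc2 were listed for their known large falls, so that the late mean lies below this list is part of the choice and no finding. The late mean minus the red cell mean was -0.68 to -0.22 in KO livers and 0.12 to 0.42 in WT livers, a difference of -0.72. The early mean minus the red cell mean was -0.13 to 0.12 in KO livers and -0.17 to 0.19 in WT livers, a difference of -0.10 with overlapping groups. The mean of the 21 other late maturation genes differed by -0.52, less than the -0.65 of the red cell list. The share of other liver cells in these 2 means was not measured either.

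**Figure D3:**
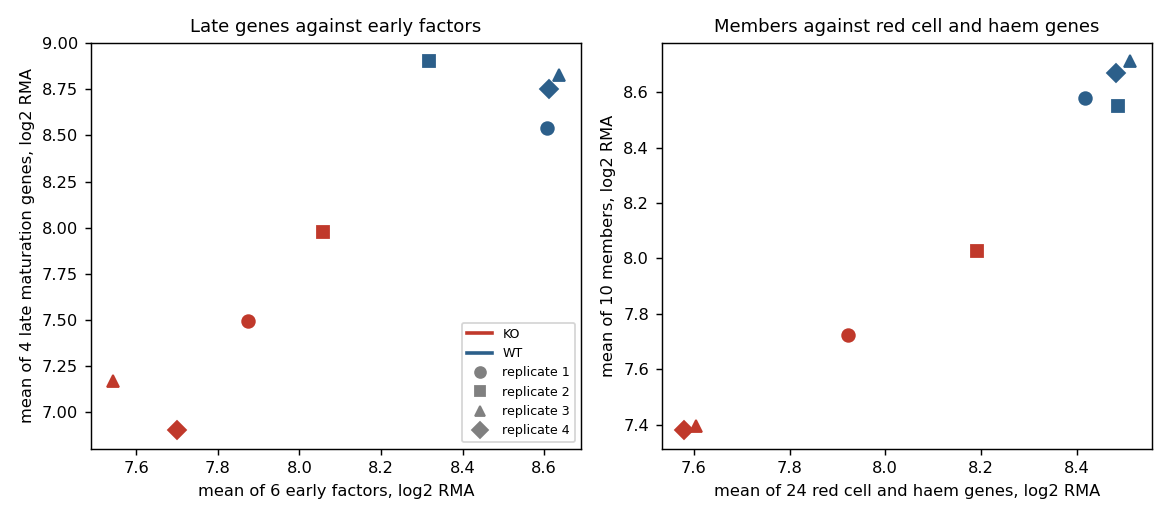
Means per liver on the log2 RMA scale, with late genes against early factors on the left and the 10 genes against 24 red cell and haem genes on the right. KO livers are red, WT livers blue, and marker shapes give the replicate number. The WT livers lie at the top right of both plots, with WT 2 lower than the other WT livers in the early factors, and the KO livers run from KO 2, the nearest, to KO 3 and KO 4, the farthest.

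Other genes of late red cell maturation were lower too. Of 21 found by symbol, 4 were lower past the threshold by the brightest probe set (0.841% of all genes) and 0 higher. The mean was lower in 20, the groups parted downward in 11 (5.02% of all genes), and the median difference was -0.51. Nothing is read from these counts, since this list too was drawn up with earlier results of these data known. Dmtn, a protein of the membrane skeleton, fell by 1.26 ± 0.17 (SE), and Ube2o, a ubiquitin enzyme that clears proteins from reticulocytes, by 1.02 ± 0.17. Bpgm, which makes the small molecule that loosens oxygen from haemoglobin, fell by 0.92 ± 0.15 and Isca1, an iron-sulfur assembly protein, by 0.51 ± 0.10, with limma adjusted p of 0.0255 to 0.0499 for the 4. Not every gene named with late maturation differed in this way. Alox15, the lipoxygenase of reticulocyte organelle clearance, differed by 0.08 ± 0.10 at a mean of 2.71 in KO livers and 2.63 in WT livers, too dim to be shown above background, and Riok3 differed by -0.26 ± 0.13, with an adjusted p of 0.502. The dimmest Bpgm probe set passed too, at -1.03 ± 0.14 (SE). The middle one did not, at -0.78 ± 0.17 with a limma adjusted p of 0.0787. The brightest Add2 probe set did not pass, with an adjusted p of 0.103, while a dimmer one did, at -0.91 ± 0.14. The remaining Add2 probe sets did not pass. Add2, Alox15 and Riok3 were picked after their values were seen.

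Other erythroid transcription factors gave a mixed picture. By the brightest probe set 1 of 24 was lower past the threshold (0.841% of all genes) and 0 higher. The mean was lower in 18, the groups parted downward in 8 (5.02% of all genes), and the median difference was -0.22. As with the other lists, earlier results of these data were known, so nothing is read from these counts. In Mafg the KO livers lay wholly above the WT livers, at a difference of 0.39 ± 0.10 (SE) with a limma adjusted p of 0.134. The one past the threshold was Zfpm1, the FOG-1 cofactor of Gata1, which fell by 0.80 ± 0.14 (SE) with a limma adjusted p of 0.0441. The dimmer Zfpm1 probe set did not pass, at -0.77 ± 0.26, with overlapping groups and an adjusted p of 0.260. A dimmer probe set each of E2f2 and Sox6 was also lower past the threshold, at -0.999 ± 0.175 and -0.822 ± 0.139 (SE), with adjusted p of 0.0440 and 0.0399. The brightest probe sets of E2f2 and Sox6 did not pass, with adjusted p of 0.0666 and 0.105, nor did the remaining ones of Sox6. Klf1, the factor that drives adult globin and many red cell genes, averaged 8.94 ± 0.43 (SD, n = 4) in KO livers and 9.86 ± 0.10 in WT livers, a difference of -0.91 ± 0.19 (SE) with an adjusted p of 0.0636. Of the partners of Gata1 and Tal1, Lmo2 differed by -0.60 ± 0.13, with groups that parted downward and an adjusted p of 0.0707. Ldb1 differed by 0.36 ± 0.15, with overlapping groups and an adjusted p of 0.360. Of the factors used by earlier progenitors, Myb differed by 0.01, with a 95% interval of -0.37 to 0.39, and Gata2 by 0.06, with an interval of -0.21 to 0.33, while Lyl1 differed by -0.69 ± 0.15, with an adjusted p of 0.0741. Mafg, E2f2, Sox6, Lmo2, Ldb1, Myb, Gata2 and Lyl1 were picked from the list after their values were seen.

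The genes listed under erythropoietin signalling gave no call. Of 17 genes of erythropoietin signalling found by symbol, 0 passed in limma, 4 had an unadjusted p under 0.05, as 14.6% of all genes had, and the median difference was 0.06. Bcl2l1, the survival factor that the receptor induces, had the lowest p, at -0.34 ± 0.10 (SE) with an adjusted p of 0.207. The kinase Jak2 differed by 0.11, with a 95% interval of -0.24 to 0.47, and the feedback inhibitor Cish by -0.05, with an interval of -0.29 to 0.20. The kinase Pim1 differed by -0.49, with an interval of -0.97 to -0.01, and the feedback inhibitor Socs3 by -0.33, with an interval of -0.59 to -0.07 and groups that parted downward. Socs2 went the other way, at 0.49, with an interval of 0.06 to 0.92 and overlapping groups. All of these but Bcl2l1 were picked after their values were seen. Epo, Lyn and Fam132b were listed but not found by symbol, and Kit is counted among the progenitor markers as well. The share of hepatocytes and other cells in these levels was not measured. Whether signalling by Epor differed within red cell precursors was therefore not tested.

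Gata1, Tal1, Nfe2 and Gfi1b are also used by megakaryocytes and mast cells, so markers of these and other cells are set beside the list. Of 8 megakaryocyte and platelet markers 0 passed in limma, 1 had an unadjusted p under 0.05 (14.6% of all genes had), and the summed level, as a mean over the markers, was 6.82 to 6.99 in KO livers and 6.70 to 7.15 in WT livers. Pf4, the main platelet chemokine, was at 9.56 ± 0.18 (SD, n = 4) in KO livers and 9.41 ± 0.15 in WT livers, and Vwf, with the lowest p, differed by -0.45 ± 0.18 (SE), with an adjusted p of 0.364. Of 5 mast cell and basophil markers 0 passed in limma, 2 had an unadjusted p under 0.05 (14.6% of all genes), and the mean was 3.75 to 4.21 in KO livers and 3.78 to 4.17 in WT livers, near the array medians. The lowest p was that of Tpsb2, a mast cell tryptase, at 0.28 ± 0.11 with an adjusted p of 0.329. Of 7 stem and early progenitor markers 0 passed in limma, 1 had an unadjusted p under 0.05 (14.6% of all genes), and the mean was 4.65 to 4.89 in KO livers and 4.65 to 4.85 in WT livers. Meis1, a factor of early progenitors, differed by 0.43 ± 0.15, with KO livers wholly above WT livers and an adjusted p of 0.265. In each of these 3 lists the ranges of the 2 genotypes overlapped.

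Cell cycle genes were lower with the 10 genes. Their list, too, was drawn up with earlier results of these data known, so nothing is read from its counts. Of 11 found by symbol 2 passed, both lower (0.841% of all genes), the groups parted downward in 10 (5.02% of all genes), and the median difference was -0.71. Ccna2 and Ccnb2, cyclins of the later cell cycle, fell by 0.82 ± 0.14 (SE) and 0.71 ± 0.12, with limma adjusted p of 0.0400 and 0.0375. The mean of the list was 8.10 to 8.61 in KO livers and 8.99 to 9.25 in WT livers, and its part in the lower levels of the 10 genes was not tested. Neutrophil, B cell precursor, Kupffer cell, endothelial and hepatocyte markers had medians of -0.24, -0.24, 0.05, -0.13 and 0.09, with 0 genes past the limma threshold in each list, and 0, 2, 1, 0 and 1 at an unadjusted p under 0.05, where 14.6% of all genes were. The gene with the lowest p in each, in the same order, was Ltf (lactoferrin) at -0.47 ± 0.22, Vpreb1 (a surrogate light chain) at -0.68 ± 0.22, C1qa (a complement subunit) at 0.37 ± 0.16, Lyve1 (a hyaluronan receptor) at 0.61 ± 0.30 and Fgb (fibrinogen beta) at 0.31 ± 0.09, with limma adjusted p of 0.187 to 0.483.

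**Figure D4:**
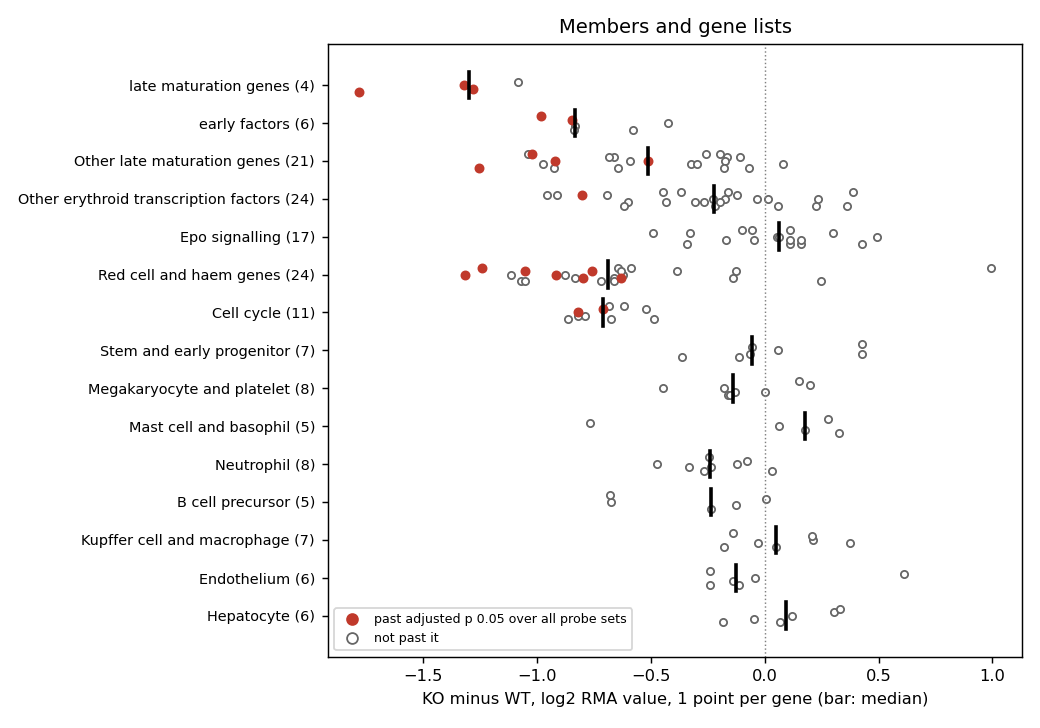
Difference of the means, KO minus WT, in log2 RMA value for each gene (points) of the 10-gene list and of 13 other lists, with the number of genes in brackets. Filled points passed an adjusted p of 0.05 over all probe sets, open points did not, and bars are medians. The late maturation genes have the lowest median, -1.30, and the early factors the next, -0.84, both chosen with these values known. The other late maturation genes have a median of -0.51, while megakaryocyte and progenitor markers lie around 0.

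The counts of calls changed with 1 liver left out. Each such fit also has 1 array fewer, and what that loss alone does to the counts was not tested. Without KO 3, KO 4, WT 3 or WT 4, 0 of the 18 probe sets passed in limma. The count was 3 without KO 1 and 8 without KO 2, while the median difference stayed between -1.48 and -1.14 for the late genes and between -0.95 and -0.68 for the early factors. Over all probe sets 343 passed with 8 arrays, and 9 to 489 without 1 of them. Named calls outside the 10 genes also changed in such fits. The dimmer E2f2, Sox6, Bpgm and Add2 probe sets were not refitted in this way. With 1 of the 8 livers left out in turn, Dmtn passed in 4 of the 8 fits, Hbb-bh1, Ermap and Bpgm in 3, Icam4, Ank1, Ube2o, Ccna2 and Ccnb2 in 2, Zfpm1 and Smox in 1 and Isca1 in 0, with adjusted p of 0.0638 to 0.178 for Isca1 in limma. Klf1, which missed the threshold with all 8 livers, passed in 1 of these fits.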

How the data were processed

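RNA from 8 livers was labelled with biotin and hybridised to Affymetrix arrays, per the labels. The authors deposited log2 values, normalized with RMA per the submitters' processing notes (no version of it is given there). Of 45101 probe sets, 64 array controls were left out. The 45037 others entered 1 linear model of KO against WT (limma 3.58.1 with eBayes, run in R 4.3.3), with Benjamini-Hochberg adjustment over all of them and a threshold of 0.05. GEO's platform annotation names 1 gene for 34945 of the 45037 probe sets, several for 932, and 9160 are unnamed here. Of the 34945, 34741 were updated through the RefSeq gene table of GRCm38.p6. The probe set with the highest mean stood for each of 18193 genes.

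The 10 genes and all other lists were chosen with earlier results of these data known. From each other list the text names up to 4 genes past the threshold with the lowest p, or the 1 with the lowest p where none passed, always Klf1, and the 8 genes most like the 10-gene mean. Genes named beyond this are said to be picked. The fit was tested on simulated data, where it recovered 31.5%, 93.5% and 99.5% of changes of 0.5, 1 and 2 log2 units among 45037 probe sets, with 3.65% of calls false. The simulated noise was drawn independently for each probe set, whereas genes moved together within genotypes in these livers. The rates therefore need not hold for the real comparison. Arrays give no read depth, and their number limits the precision. Alternatives covered normalization, blocks, a sex covariate, dim probe sets, the variance model, array weights, the probe set of a gene and each liver left out.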

Additional observations from a re-analysis of the deposited data

Results flagged for a closer look

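In 8 of 104 groups of 4 livers (7.69%), 1 liver stood apart from the other 3 by more than Dixon's test allows at its 95% level, where chance gives about 1 in 20. Among the 10 genes and their means, WT 1 was low for the second Tmcc2 probe set, at 9.831, with the other WT livers at 10.15 to 10.19. WT 2 was low for the mean of the early factors, at 8.318, with the others at 8.608 to 8.637. In KO livers, KO 2 was high for Hbb-bh1, at 4.953 against 4.272 to 4.364 in the other KO livers, and low for Vpreb1, at 3.14 against 3.721 to 3.836. KO 3 was low for Ccna2, at 8.005 against 8.526 to 8.626. In WT livers, WT 1 was high for C1qa, at 8.034 against 7.516 to 7.587, and low for Meis1, at 4.231 against 4.624 to 4.636. WT 3 was high for Plekha7, at 4.954 against 4.919 to 4.921.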

How the results depend on the processing

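The medians and the difference between the late and early means kept their sign under the alternatives run for them (the dim filter, the variance model and array weights were run for calls alone), while the counts of calls did not hold. With 1 liver left out, the count ranged from 9 to 489 for all probe sets (343 with all 8), 0 to 8 for the 18 probe sets (7), 0 to 6 for the 10 genes (5), 0 to 3 for other transcription factors (1), 0 to 4 for other late maturation genes (4), 0 to 14 for red cell genes (7) and 0 to 0 for erythropoietin signalling (0). The late median ranged from -1.48 to -1.14, the early one from -0.95 to -0.68, and the difference between the late and early means per liver from -0.73 to -0.49. With the replicate number as a block 15 probe sets passed, and 0 of the 18 probe sets, 0 of the 10 genes, 0 transcription factors, 0 late maturation genes and 0 red cell genes. The numbers were not shown to pair the livers: same-numbered deviations correlated at -0.0039, 0.0689, 0.174 and 0.259, and 1 of 4 KO livers correlated best with its own number. Quantile normalization once more gave 0 transcription factors, 4 red cell genes and 3 of the 10 genes. A block for replicates 1 and 2 against 3 and 4 gave 3 transcription factors and 13 red cell genes. The sex covariate gave 527 probe sets, 4 transcription factors and 14 red cell genes. Leaving out dim probe sets gave 2 transcription factors and 11 red cell genes, and the trended robust variance gave 2 transcription factors. Array weights gave 914 probe sets, 13 of the 18 probe sets, 9 of the 10 genes, 7 transcription factors, 8 late maturation genes and 18 red cell genes. The 8 genes named by likeness were added to these fits after seeing the data; Plekha7, at 0.04 with all livers, ranged from -0.0273 without KO 2 to 0.0870 without KO 4. The causes were not tested.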
